A study of Mus musculus with 4 samples.

Results

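The beta chain of the alpha-beta T cell receptor is encoded in pieces, and the subject here is the mouse genes that supply its variable (Trbv), diversity (Trbd) and joining (Trbj) pieces. Every gene whose symbol begins with Trbv, Trbd or Trbj was taken, which gave 51 of 55536 genes: 35 Trbv, 2 Trbd and 14 Trbj. The study has 1 group: total RNA of T cells, described in the labels by the surface protein CD3, from the spleen of male B6CASTF1/J mice aged 66 days, hybrids whose mothers were C57BL/6 and whose fathers were CAST/EiJ. It was sequenced in 4 libraries from 300 ng of RNA each, with ERCC spike-in RNAs and no treatment. The labels call the 4 libraries biological replicates but give them 1 shared donor identifier, so the spread between them may be technical in part. With 1 group there is no contrast between conditions, and the values below are levels with their spread over the 4 libraries.

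A developing T cell in the thymus cuts its DNA and joins 1 Trbd to 1 Trbj piece and then 1 Trbv piece to the pair, a process called V(D)J recombination. The joined exon is spliced to a constant piece, Trbc1 or Trbc2, and the Trbv piece supplies most of the domain that meets the antigen. Each mature T cell uses in the main a single joined beta chain, so RNA from many cells gives a mixture in which each Trbv gene stands for the cells that chose it. In such bulk RNA, fewer cells with a segment and less RNA per cell cannot be told apart. A count of a Trbv gene also does not say whether its read came from a joined or an unjoined copy.

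The Trbv pieces of the mouse reference (GRCm38, GENCODE M21) end in a short conserved stretch that the joining process cuts into. The last 45 bases of 7 spliced Trbv transcripts are shown because they cover the highest levels, the most alike segments and the 1 annotated pseudogene with an appreciable level. Capitals mark the codon of the conserved cysteine, taken as the first cysteine codon in frame in the last 27 bases, and in Trbv24 also the stop codon that comes before it.
Trbv29: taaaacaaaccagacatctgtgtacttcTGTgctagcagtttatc
Trbv13-2: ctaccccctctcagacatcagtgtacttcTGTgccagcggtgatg
Trbv1: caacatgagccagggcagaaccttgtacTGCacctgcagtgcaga
Trbv13-1: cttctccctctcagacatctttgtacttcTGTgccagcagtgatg
Trbv13-3: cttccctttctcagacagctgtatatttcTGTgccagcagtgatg
Trbv26: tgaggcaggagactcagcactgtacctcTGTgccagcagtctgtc
Trbv24: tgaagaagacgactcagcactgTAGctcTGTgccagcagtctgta

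These segments lie on chromosome 6 of GRCm38. Trbv29 is at chr6:41271394-41271881, Trbv13-2 at chr6:41121396-41121832, Trbv1 at chr6:40891229-40891885 and Trbv13-1 at chr6:41116007-41116468, all on the plus strand. Trbv13-3 is at chr6:41130147-41130585, Trbv26 at chr6:41227505-41227993 and Trbv24 at chr6:41218091-41218557, also on the plus strand. Each is annotated as a leader exon and a variable exon with an intron between them.

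All 22 Trbv genes of the biotype TR_V_gene had a reading frame of 97 to 124 codons from an ATG, and in 21 of the 22 it ran open to within 2 bases of the transcript's end. The exception was Trbv4, whose frame met a TAA stop 4 codons after the cysteine codon. A cysteine codon stood in that frame in 22 of 22, with 14 to 21 bases from its first base to the end, and in 20 of 22 the codon TAC or TAT, for tyrosine, stood 2 codons before it. In Trbv24 the frame ran for 108 codons and met TAG as codon 109, at the place where those 20 genes have the tyrosine codon. Among the other 12 annotated Trbv pseudogenes the longest frame had 76 codons. An open end was not particular to the genes, as 5 of the 13 annotated pseudogenes also had a frame open to within 2 bases of the end.

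The diversity and joining pieces are far shorter. Both Trbd pieces are shown whole, with the longest run of G in capitals, together with 4 of the 14 Trbj pieces: the first, the last, and 2 of the 3 that lack the common motif. Capitals in Trbj mark the motif TTNGGNNNNGG, searched on the plus strand only, which covers the codons for the phenylalanine and glycines that close the variable domain.
Trbd1: gggacaGGGGGc
Trbd2: gggactGGGGGGGc
Trbj1-1: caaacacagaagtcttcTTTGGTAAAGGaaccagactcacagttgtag
Trbj2-7: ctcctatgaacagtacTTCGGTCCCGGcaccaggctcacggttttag
Trbj1-6: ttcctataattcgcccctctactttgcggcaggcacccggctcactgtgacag
Trbj2-6: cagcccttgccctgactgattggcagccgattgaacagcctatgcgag

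Trbd1 lies at chr6:41533201-41533212 and Trbd2 at chr6:41542163-41542176, each followed by its own row of Trbj pieces. Trbj1-1 lies at chr6:41533864-41533911, Trbj1-6 at chr6:41535554-41535606, Trbj2-6 at chr6:41543598-41543645 and Trbj2-7 at chr6:41543810-41543856. The motif was found in 11 of 14 Trbj pieces, with 0 stop codons in the frame it sets in each of the 11, and not in Trbj1-6, Trbj1-7 or the annotated pseudogene Trbj2-6. Neither Trbd piece has a stop codon in any of its 3 frames, and G makes up 66.7% of Trbd1 and 71.4% of Trbd2.

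No Trbd or Trbj gene received a count: all 2 and all 14 were listed at 0 in every library of both deposited quantifications. The zeros of the first quantification cannot be read as absence of the RNA. In the first quantification all 139513 transcripts over 100 bases had an effective length, the number of positions at which a fragment can start, of exactly 100 bases less than their length. All 28694 transcripts of 100 bases or less had an effective length of 0 and a count of 0 in every library. Trbd1 has 12 bases, Trbd2 has 14, and the Trbj transcripts have between 45 and 54, so each was under that bound, and no detection limit can be set for them in the first quantification. The second gave them effective lengths above 0, 6.83 bases for Trbd1 and 7.77 bases for Trbd2, and also 0 counts. No detection limit was set for such short pieces there, so these zeros too cannot be read as absence of the RNA.

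**Figure D1:**
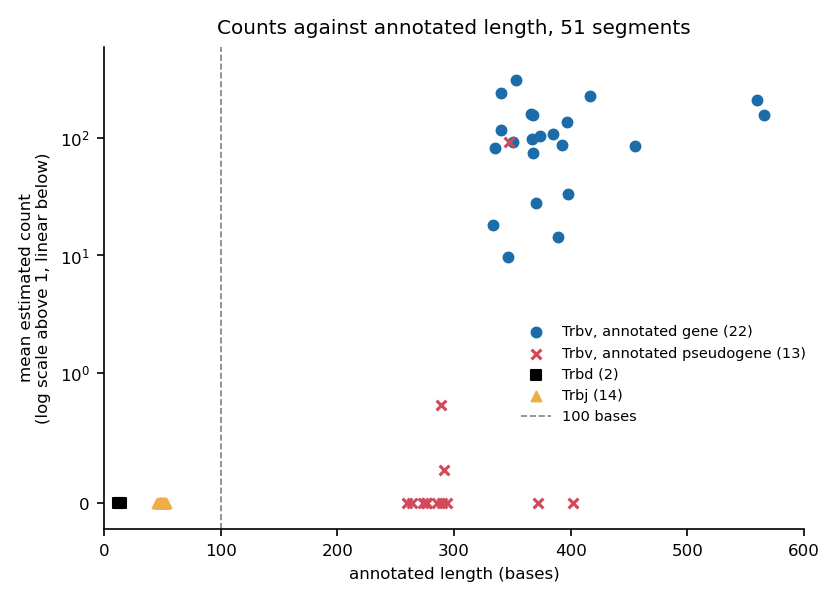
Mean estimated count over 4 libraries (y axis, log scale above 1 and linear below) against annotated length in bases (x axis) for the 51 segments, with a dashed line at 100 bases. All Trbd and Trbj genes sit left of the line at 0, the 22 annotated Trbv genes sit right of it above 9, and Trbv24 is the 1 pseudogene among them.

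The libraries held 15818334, 17335895, 16439475 and 14584388 estimated counts in libraries 1 to 4, of which 3 counts amount to 0.174 to 0.206 CPM. All 10 listed T cell markers were at or above 10 TPM, a level per length scaled to a fixed library total, and their summed level was 2894 to 3007 TPM. Library 4 stood apart in the markers of other blood cells: the 10 B cell markers summed to 152 TPM there against 14.7 to 20.5 TPM in libraries 1 to 3, with none at 0, and the 5 erythroid markers to 633 TPM against 15.2 to 62.3 TPM. The 22 Trbv genes summed to 549, 558, 572 and 519 TPM in libraries 1 to 4, so library 4 was also the lowest of the 4 for them. The part of the other cells' RNA in that difference was not tested. Without library 4 the mean of the summed level was 559.6 TPM, against 549 ± 22.6 TPM with it (SD, n = 4).

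All 22 Trbv genes had counts in every library, and 20 of them had 10 or more in each. They carried 2573, 2811, 2714 and 2187 counts in libraries 1 to 4. The median of their mean levels was 22.7 TPM, against 10.2 TPM over the 12776 genes of at least 1 TPM, and 6.24% of all 55536 genes lay above that median. Their levels spanned 31.9-fold in the means, with 8 genes at 25 TPM or more, 9 between 10 and 25 TPM and 5 under 10 TPM.

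Trbv29, formerly Tcrb-V7, had the highest level in the first estimate, at 79.0, 77.6, 79.7 and 67.0 TPM in libraries 1 to 4. It ranked first in 4 of 4 libraries, and its value in library 4 lay below the other 3. In the second deposited estimate, described further on, it lay below Trbv13-2 in 4 of 4 libraries. GENCODE M21 annotates it as a gene, whereas the RefSeq table of the same build lists it as a pseudogene. Its reference transcript has an open frame of 114 codons with the cysteine codon shown above.

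Trbv13-2, formerly Tcrb-V8.2, had 56.4, 61.8, 73.0 and 57.8 TPM. It ranked second in 4 of 4 libraries, although its range overlapped that of Trbv29. The log2 ratio of Trbv29 over Trbv13-2 was 0.49, 0.33, 0.13 and 0.21, a mean of 0.29 ± 0.16 (SD, n = 4).

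Trbv1, formerly Tcrb-V2 and the outermost Trbv gene, had 44.2, 41.9, 48.8 and 41.0 TPM. Its rank was 3 in 4 of 4 libraries, and its range overlapped neither that of Trbv13-2 above it nor that of Trbv13-1 below it. In the second deposited estimate its rank was 3, 5, 3 and 6, and its range overlapped that of Trbv13-1, so that its separation from Trbv13-1 did not hold there.

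In the first estimate the next genes were not separable from each other. Trbv13-1 (Tcrb-V8.3) had 38.3, 37.6, 39.3 and 31.4 TPM. Trbv5 (Tcrb-V1) had 33.4, 40.9, 37.1 and 32.7 TPM. Trbv13-3 (Tcrb-V8.1) had 34.5, 28.3, 25.8 and 31.3 TPM. Each of these ranges overlapped the next, and Trbv5 was above Trbv13-1 in 2 of 4 libraries. In the second deposited estimate Trbv13-3, at 29.1 to 35.7 TPM, lay below both others. Trbv5 had 35.9 to 48.5 TPM there and Trbv13-1 had 46.2 to 57.1 TPM, so these ranges still overlapped.

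Trbv31 (Tcrb-V14), the 1 Trbv member on the minus strand, had 22.8, 29.1, 33.7 and 28.9 TPM. Trbv2 (Tcrb-V4) had 24.6, 30.3, 28.4 and 30.3 TPM. In the first estimate both were lowest in library 1, and their ranges overlapped. In the second, Trbv2, at 39.9 to 48.6 TPM, lay above Trbv31, at 27.8 to 39.5 TPM.

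Below these, in the first estimate, came a plateau of segments whose ranges overlapped in an unbroken chain. Trbv17 averaged 23.4 ± 1.90 TPM, Trbv12-2 averaged 23.3 ± 2.98 TPM, Trbv26 averaged 22.8 ± 1.60 TPM and Trbv21 averaged 22.7 ± 2.26 TPM (SD, n = 4). Trbv20 averaged 21.8 ± 3.02 TPM, Trbv19 averaged 20.5 ± 1.07 TPM and Trbv4 averaged 18.2 ± 3.63 TPM. Trbv14, at 16.9 ± 0.803 TPM, and Trbv3, at 14.6 ± 1.31 TPM, closed this group. Of the 24 steps between neighbours in the whole order, 4 had ranges that did not overlap: Trbv13-2 over Trbv1, Trbv1 over Trbv13-1, Trbv3 over Trbv16 and Trbv23 over the pseudogene Trbv10.

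In the first estimate the step from Trbv3 to Trbv16 set off 5 low genes. In the second, Trbv3, at 18.2 to 22.7 TPM, still lay above Trbv16, at 12.6 to 17.3 TPM. Trbv20 averaged 15.4 ± 1.63 TPM there, level with Trbv16 at 15.5 ± 2.16 TPM, so the 5 low genes were not set off. In the first estimate Trbv16 (Tcrb-V11) averaged 6.995 ± 1.51 TPM and Trbv15 (Tcrb-V12) averaged 6.28 ± 1.22 TPM. Trbv30 (Tcrb-V18) had 4.73, 5.54, 4.91 and 3.78 TPM. Trbv12-1 (Tcrb-V5.2) had 4.22, 2.94, 2.91 and 1.89 TPM. Trbv23 (Tcrb-V20) had 2.22, 2.98, 2.92 and 1.40 TPM, from 9, 13, 12 and 5 counts. The last 2 exchanged the lowest place between libraries, and at 5 to 20 counts a library their order was not separable.

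**Figure D2:**
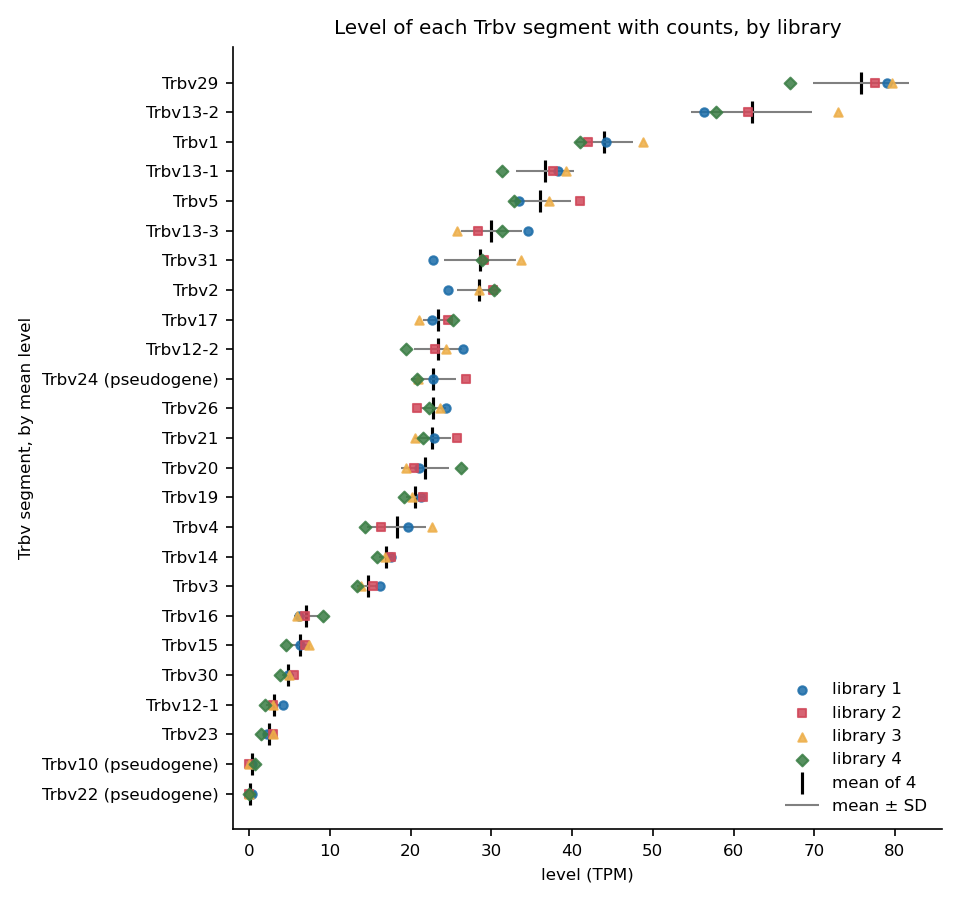
Level in TPM in the first estimate (x axis) of the 25 Trbv segments with any count, ordered by mean level (y axis), with 1 point per library, a tick at the mean and a bar of mean ± SD over 4 libraries. Trbv29, Trbv13-2 and Trbv1 stand above the rest, many others near 20 TPM have ranges that overlap those of their neighbours, and the annotated pseudogene Trbv24 sits among them at 22.8 TPM.

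Trbv24, formerly Tcrb-V17, was the 1 annotated Trbv pseudogene with a level like that of the genes. It had 22.7, 26.8, 20.9 and 20.8 TPM from 92, 117, 86 and 75 counts in libraries 1 to 4. These values ranked it 12th, 9th, 13th and 13th among all Trbv members, and its range overlapped those of Trbv12-2 above it and Trbv26 below it. In the second deposited estimate these overlaps did not hold. Trbv24 had 23.7 to 26.7 TPM there, below Trbv12-2 at 33.2 to 36.6 TPM and Trbv26 at 51.8 to 54.5 TPM. It took 3.46% ± 0.392 of all Trbv counts (SD, n = 4) and 97.4% to 100% of the counts of Trbv pseudogenes. RefSeq lists it as a V segment and GENCODE M21 as a pseudogene.

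The neighbours of Trbv24 had unequal levels. Trbv23 begins about 2 kb before it and averaged 2.38 ± 0.739 TPM, 9.57-fold lower in the means, although Trbv23 has an open frame of 115 codons and Trbv24 a stop codon. Over their last 285 bases the reference transcripts of Trbv24 and Trbv26 are 75.1% identical and those of Trbv23 and Trbv24 74.0%. As background, this segment is known in laboratory mice in an intact and in an interrupted form. The sequence shown is that of the C57BL/6 reference, the CAST/EiJ sequence was not used here, and the counts do not separate the 2 alleles of these hybrid mice.

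The other 12 Trbv pseudogenes had next to nothing. Trbv10 had 1, 0, 0 and 2 counts and Trbv22 had 1, 0, 0 and 0 counts, and the other 10 were at 0 in every library. A count of 3 in a library, the floor used for a zero, would be 0.562 to 1.28 TPM for these 10, so levels of that size could not be detected in 1 library. They are 260 to 402 bases long, over the bound that removed the Trbd and Trbj genes.

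The Trbv12 and Trbv13 segments alternate along the chromosome, in the order Trbv12-1, Trbv13-1, Trbv12-2, Trbv13-2, Trbv12-3 and Trbv13-3, and hold the most alike sequences. Trbv13-2 and Trbv13-3 are 91.6% identical over their last 285 bases and Trbv12-1 and Trbv12-2 are 88.8% identical, against a median of 50.9% over 435 pairs of Trbv members. In the first estimate Trbv13-2 was 2.08-fold above Trbv13-3 in the means. The levels of Trbv12-1 and Trbv12-2 were farther apart. Trbv12-2 had 26.5, 23.0, 24.4 and 19.4 TPM, against 4.22, 2.94, 2.91 and 1.89 TPM of Trbv12-1, so Trbv12-2 was 7.81-fold higher in the means and higher in 4 of 4 libraries. Trbv12-3, an annotated pseudogene whose longest frame ends after 72 codons, was at 0.

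Within the Trbv13 family the order was Trbv13-2, then Trbv13-1, then Trbv13-3 in 4 of 4 libraries. The log2 ratio of Trbv13-2 over Trbv13-1 was 0.56, 0.71, 0.90 and 0.88, and that of Trbv13-2 over Trbv13-3 was 0.71, 1.13, 1.503 and 0.88. In the first estimate the step between Trbv13-1 and Trbv13-3 was about as large as its spread, at a log2 ratio of 0.29 ± 0.27 (SD, n = 4). In the second deposited estimate that log2 ratio was 0.75 ± 0.14. Together the 3 took 20.3% ± 0.513 of the counts of the 22 genes, against 4.78% ± 0.628 for Trbv12-1 and Trbv12-2.

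Reads of these alike segments could be exchanged in counting. Of 595 pairs of Trbv members 5 shared a run of 31 bases, all of them within the Trbv12 or the Trbv13 family, and 0 pairs shared a run of 101 bases. The authors' deposited SD of the count, which measures doubt in assigning reads within a library, was 0 in every library for 20 of the 22 genes. The other 2 were Trbv5, with an SD of up to 2.31 counts, and Trbv4, with up to 1.40 counts. Both lie within the long noncoding gene 5830405F06Rik, which averaged 0.990 ± 0.144 TPM, so a small part of the counts of Trbv4 and Trbv5 is uncertain.

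The shares of the 22 genes in the counts were alike in the 4 libraries. The 5 largest shares belonged to Trbv29, Trbv13-2, Trbv1, Trbv2 and Trbv13-1 and summed to 44.03%, 45.1%, 47.1% and 44.2%. The inverse Simpson index, the number of equally used segments that would give the same evenness, was 15.4, 15.1, 14.6 and 15.3. Counting error alone was then set beside the spread. For 11 of the 22 genes the SD of the share over libraries was above the SD that counting gives, and for 11 it was not, with ratios from 0.318 for Trbv14 to 1.66 for Trbv2.

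Trbv2 had a share of 7.23%, 8.75%, 8.03% and 9.33%, and Trbv13-2 one of 8.63%, 9.32%, 10.8% and 9.28%. Trbv14 had 2.99%, 2.95%, 2.76% and 2.84%. Over the 22 genes the chi-square statistic per degree of freedom, which is near 1 where libraries differ by counting error alone, was 0.856 to 1.87 over the 6 pairs of libraries, with a median of 1.13.

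**Figure D3:**
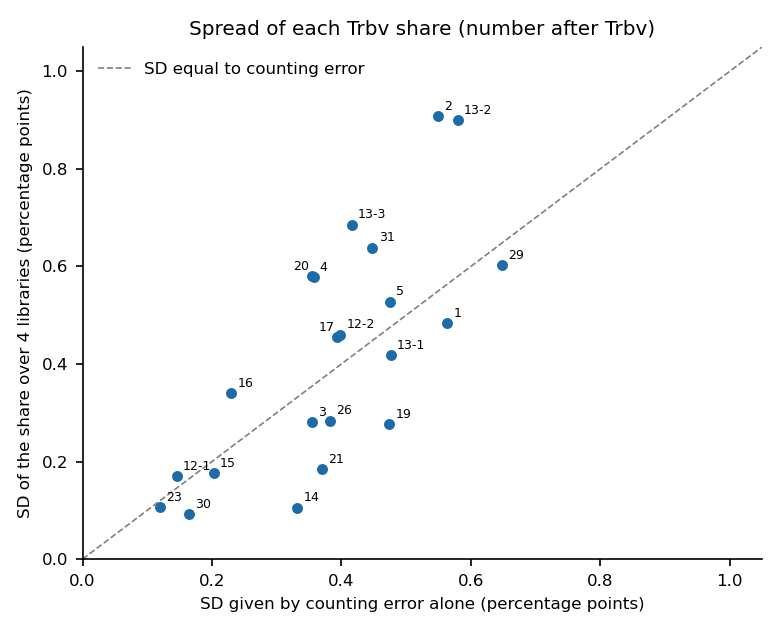
SD of each Trbv gene's share of counts over 4 libraries (y axis, percentage points) against the SD that counting error alone gives (x axis, percentage points), with a dashed line where they are equal. The points lie on both sides of the line, 11 above it, with Trbv2 and Trbv13-2 the highest.

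A test across the whole table found no member whose level varied between libraries. In edgeR's goodness-of-fit test, with Benjamini-Hochberg adjustment over 13118 genes, 183 genes passed at an adjusted p below 0.05, which is 1.40% of those tested. Of the 21 Trbv genes and pseudogenes that passed the filter on low counts, 0 passed, 0 had an unadjusted p below 0.05, and the lowest unadjusted p was 0.37, that of Trbv4. With 1.40% called over all genes, fewer than 1 call would be looked for among 21, so the count of 0 is near the background. By comparison 8 of 8 tested B cell markers and 3 of 3 tested erythroid markers passed in the same fit.

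Along the chromosome, 34 of the 35 Trbv members lie upstream of Trbd1 and 1 lies downstream. Trbv1 lies 641 kb upstream and the other upstream genes between 485 and 251 kb. Trbv31 lies 24.5 kb downstream of Trbd1, beyond Trbc2 and in the opposite orientation, so that as background it joins by inversion of the DNA between. Both of these outermost genes were among the 8 highest genes in the mean. Across the 22 genes, distance from Trbd1 and mean TPM had a Spearman rho of 0.16 and a Pearson r of 0.051, given as a description over segments that share the 4 libraries.

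High and low segments lay side by side. Trbv29, the highest in the first estimate, and Trbv30, among its 5 lowest, are next to each other, 261 and 251 kb upstream of Trbd1. Trbv2 and Trbv3 lie within 1 kb of each other and averaged 28.4 ± 2.66 and 14.6 ± 1.31 TPM (SD, n = 4). Without Trbv1 and Trbv31 the rho over the other 20 genes was 0.15.

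The stretch between the upstream Trbv pieces and Trbd1 holds trypsinogen genes, which encode digestive enzymes of the pancreas. Of 8 listed genes of this family, 7 lie there and 2210010C04Rik lies between Trbv1 and Trbv2. Their summed level was 0.21, 0.65, 0.25 and 0.86 TPM, and 4 of 8 were at 0 in every library. Prss2, the nearest to Trbd1, averaged 0.265 ± 0.234 TPM from a mean of 3 counts. The trypsinogen genes lay far below the Trbv genes on either side of them.

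**Figure D4:**
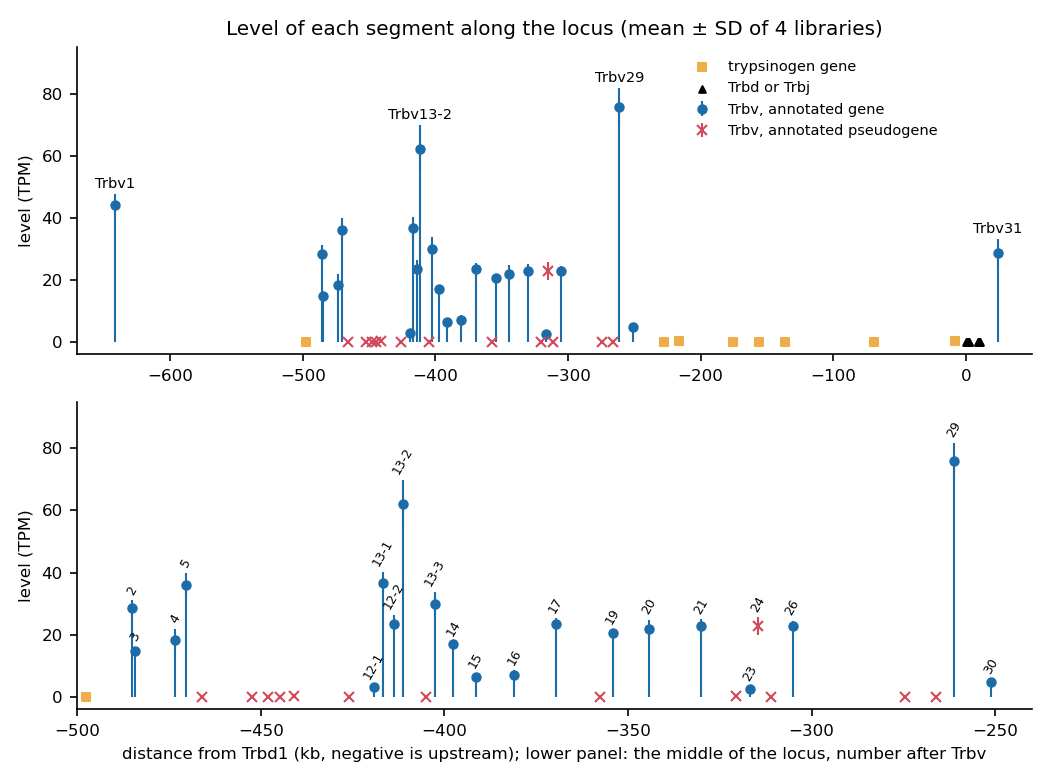
Mean level in TPM (y axis, bars are SD over 4 libraries) against distance from Trbd1 in kb (x axis, negative is upstream) for Trbv genes, Trbv pseudogenes, trypsinogen genes and the Trbd and Trbj genes, over the whole locus above and its middle below. High and low Trbv genes lie side by side, and Trbv24 is the 1 pseudogene well above 0. The trypsinogen genes lie at or near 0, all but 2210010C04Rik between Trbv30 and Trbd1.

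The Trbv genes were next set beside the constant pieces to which every joined beta chain is spliced. Trbc1 averaged 435 ± 12.2 TPM and Trbc2 averaged 658 ± 19.5 TPM (SD, n = 4). Counts of the 22 Trbv genes were 23.9%, 23.6%, 23.7% and 23.2% of those of Trbc1 and Trbc2, a log2 ratio of -2.08 ± 0.017. Per length the share was larger, 50.96%, 50.4%, 50.7% and 49.0% of the summed TPM. Library 4 was the lowest of the 4 on both scales.

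The alpha chain variable genes, Trav, need no diversity piece. The 108 Trav genes summed to 467, 498, 464 and 469 TPM, against 494, 532, 483 and 495 TPM of the single alpha constant gene Trac. The 22 Trbv genes summed to more than the 108 Trav genes in 4 of 4 libraries. That difference was not tested.

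The other parts of the receptor were even between libraries. The 7 genes of the receptor list, Trac, Trbc1, Trbc2 and the CD3 genes Cd3e, Cd3d, Cd3g and Cd247 that carry its signal, summed to 2379 ± 39.3 TPM (SD, n = 4), and 0 of 7 passed the goodness-of-fit test. Cd3e averaged 302 ± 3.86 TPM, Cd3d averaged 184 ± 14.8 TPM, Cd3g averaged 164 ± 3.50 TPM and Cd247 averaged 135 ± 1.98 TPM.

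The genes that act in the joining differed widely in level. Rag1 and Rag2, which together cut the DNA, were at 0 in every library, and Dntt, which adds bases at the joint, had 0.96, 0.49, 1.17 and 1.00 TPM. The other 13 of the 16 listed genes act in DNA bending or general repair and were all at 1 TPM or more. Hmgb1 and Hmgb2, which bend DNA, averaged 131 ± 7.98 and 58.1 ± 5.11 TPM. The Ku proteins Xrcc5 and Xrcc6, which bind broken ends, averaged 8.73 ± 0.858 and 10.2 ± 1.85 TPM, and the kinase Prkdc 9.08 ± 1.10 TPM. Dclre1c, which opens hairpin ends, averaged 8.84 ± 1.33 TPM.

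Of the ligation group Lig4 averaged 1.57 ± 0.439 TPM, Xrcc4 averaged 7.16 ± 0.610 TPM, Nhej1 averaged 1.53 ± 0.135 TPM and Paxx averaged 25.6 ± 1.38 TPM (SD, n = 4). The polymerases Poll and Polm averaged 3.66 ± 0.349 and 15.0 ± 1.59 TPM, and the damage kinase Atm 23.6 ± 3.37 TPM. Of the 14 genes of the list that could be tested, 0 varied between libraries by the goodness-of-fit test.

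The deposit holds a second estimate of the same libraries, with the column layout of kallisto, and its order of the Trbv genes was another. Trbv13-2 was the highest gene in 4 of 4 libraries there, at 95.1, 126, 113 and 102 TPM, and Trbv29 the second in 4 of 4, at 77.1, 65.8, 75.5 and 56.7 TPM. The log2 ratio of Trbv29 over Trbv13-2 was -0.67 ± 0.29 (SD, n = 4), against 0.29 ± 0.16 in the first estimate. Which of them is the higher is therefore not settled by these files.

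Both the counts and the effective lengths differed between the estimates. Trbv29 had 177, 161, 172 and 115 counts in the second estimate, against 328, 347, 336 and 248 in the first. Trbv13-2 had 208, 295, 243 and 197 counts, against 222, 262, 292 and 203. Counts were lower in the second estimate for 19 of the 22 genes and higher for 3, while TPM was higher for 20 of 22. The effective lengths were shorter in the second, 149.5 bases for the 366-base transcript of Trbv13-1, against 266 bases in the first. The ratio of the counts ran between 0.392 for Trbv20 and 1.21 for Trbv16.

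The 3 members that differed most in TPM were Trbv26, Trbv16 and Trbv13-2. Trbv26 averaged 53.0 ± 1.33 TPM in the second estimate, against 24.4, 20.8, 23.6 and 22.3 TPM in libraries 1 to 4 of the first, a log2 ratio of the means of 1.22. Trbv16 averaged 15.5 ± 2.16 TPM in the second, against 6.13, 6.83, 5.84 and 9.18 TPM in libraries 1 to 4 of the first, a log2 ratio of the means of 1.14. For Trbv13-2 the log2 ratio of the means was 0.81. Trbv20 was lower in the second estimate, at 15.4 ± 1.63 TPM, against 21.8 ± 3.02 TPM, and it was named here after its value was seen.

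Trbv26 also differed in the transcript that was counted. Its 367-base transcript held 100% of the gene's counts in every library of the first estimate, and its 344-base transcript held 86.4% of them in the second. Trbv30 has transcripts of 332 and 335 bases, and in the first estimate all its counts were on the shorter in libraries 1 and 3 and on the longer in libraries 2 and 4. Trbv23 was divided in the same manner between transcripts of 347 and 344 bases, with library 4 alone on the shorter. The 334-base transcript of Trbv31 held 0 to 53.1% of its gene over the libraries of the first estimate. It held 3.35% of the gene's counts in the second. The 290-base transcript of Trbv21 held 16.2% to 55.2% in the first and 25.7% of the counts in the second. For all of these genes the division between transcripts is thus uncertain. The level of Trbv26 per gene also differed between the estimates, and whether levels per gene are firmer was not tested.

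Some other features of the Trbv genes held in both estimates. Trbv12-2 was 7.95-fold higher than Trbv12-1 in the second, Trbv23 and Trbv12-1 stayed the lowest by mean level, and Trbv24 averaged 25.3 ± 1.49 TPM. All 22 genes again had counts in every library. The share of Trbv29 did not hold, at 8.03% ± 0.829 of the counts of the 22 genes in the second estimate, against 12.2% ± 0.603 in the first.

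**Figure D5:**
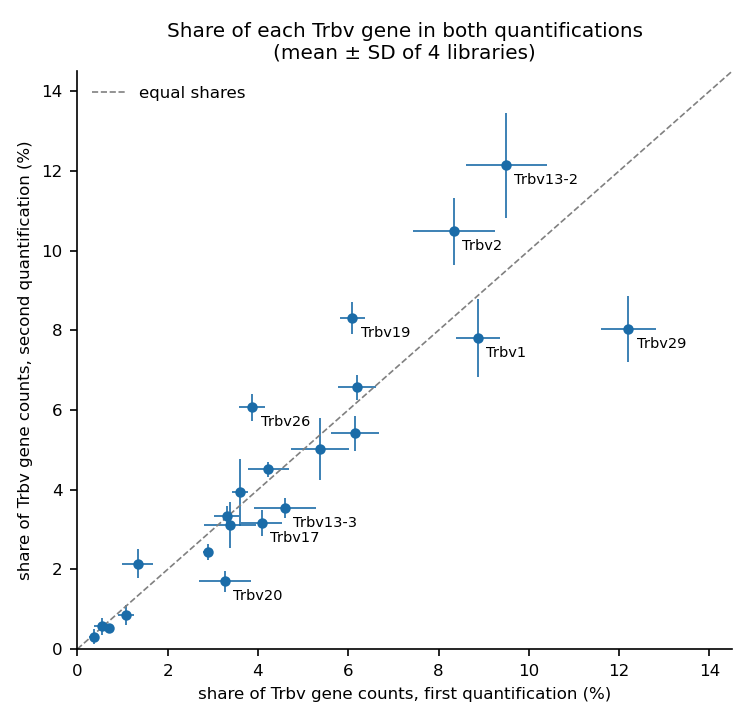
Share of each Trbv gene in the counts of the 22 Trbv genes, in percent, in the second estimate (y axis) against the first (x axis), as mean ± SD over 4 libraries with a dashed line of equal shares. Trbv29 lies farthest below the line, at 8.03% against 12.2%, and Trbv13-2, Trbv2, Trbv19 and Trbv26 lie above it.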

How the data were processed

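Per the labels and the text deposited with each library, 4 directional total RNA libraries with spike-ins were quantified on mm10 with GENCODE M21; aligner and quantifier: not given in the sources used here. Raw estimated counts per gene and transcript were deposited by the authors, in a column of expected counts. The deposited TPM values divide by effective length and sum to a fixed total in each library. The authors' FPKM values are per kilobase and per counted read. The deposited percent values give a transcript's share of its gene. Values are from the first, RSEM-style tables unless the second, kallisto-style transcript table, summed per gene, is named.

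Members were matched by symbol and gene ID, and biotypes and coordinates taken from GENCODE M21. Means, SDs and shares were computed with Python 3.11.15 and pandas 2.3.3. For the 1 test, expected counts were rounded and edgeR 4.0.16 (R 4.3.3) was run with TMM scaling, filterByExpr, a trended dispersion, an intercept and its goodness-of-fit function, with Benjamini-Hochberg adjustment over all genes tested. The procedure was tested on simulated counts drawn at the means and trended dispersion of the same fit. That run therefore cannot show whether the model suits these libraries. DESeq2 1.42.0 gave the alternative size factors. Spike-ins took 0.299% to 0.347% of the counts and stayed out of the test.

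All 22 annotated Trbv genes are given, with all 4 values for the 8 highest, the 3 lowest, the outermost, pseudogenes of at least 3 counts and the 3 that differ most between estimates. The members and lists were chosen with earlier results of these data known. Counts of reads carry counting error, and floors of 3 counts cover that error only. Sequences are GENCODE M21 transcripts of the C57BL/6 reference. Promoters and recombination signals were not analysed here.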

Additional observations from a re-analysis of the deposited data

Results flagged for a closer look

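Of 84 sets of 4 library values examined with Dixon's criterion, 5 had 1 library beyond its critical value, where chance gives about 1 in 20. Trbv29 had 67.0 TPM in library 4, against 77.6 to 79.7 TPM in libraries 1 to 3. The mean log2(TPM + 1) of the 22 Trbv genes was 4.19 in library 4, against 4.32 to 4.34 in the others. In 13 of the 22 genes library 4 had the lowest level, and in 4 it had the highest.

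The summed B cell markers reached 152 TPM in library 4, against 14.7 to 20.5 TPM in the others, and the summed erythroid markers 633 TPM, against 15.2 to 62.3 TPM. The summed neutrophil markers reached 34.8 TPM in library 2, against 10.01 to 12.6 TPM in the others. The part of these cells' RNA in the level of Trbv29 or of the other Trbv genes was not tested.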

How the results depend on the processing

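The second estimate moved 5 results by more than the SD between libraries: the summed Trbv level was 730 TPM in place of 549, the summed counts 1939 in place of 2571, the pseudogene level 25.8 TPM in place of 23.1, the share of the 5 highest 46.8% in place of 45.1% and the log2 ratio to Trbc -2.40 in place of -2.08. In TPM that ratio was -0.99, and with pseudogenes in the total the 5 highest took 43.5%. A pseudocount of 0.1 put the mean log2 level at 4.19 in place of 4.30, and counts gave a rho with position of 0.23 in place of 0.16. Without a filter on low counts 279 genes varied between libraries in place of 183, and leaving out 1 library gave 116 to 146. Without library 1 there were 118 and without library 4 there were 116. The number of members called was 0 under all of these settings, with DESeq2 size factors and in the second estimate, and 0 members had an unadjusted p below 0.05 in any of them. Of the 22 single shares, 15 moved in the second estimate, 6 higher and 9 lower, and 12 in TPM; 0 moved on leaving out 1 library. The causes were not tested. No paired analysis was possible because the study has 1 group. The depth of 5 to 20 counts a library limits the values of Trbv12-1 and Trbv23.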

Other observations

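Genes listed for gamma-delta T cells, natural killer cells and thymocytes were also measured. The 4 gamma-delta T cell genes summed to 19.8, 18.2, 23.0 and 28.1 TPM in libraries 1 to 4, and 0 of 4 varied between libraries by edgeR's goodness-of-fit test. The 4 natural killer cell genes summed to 10.04 to 16.3 TPM, with 0 of 3 tested called. The 7 genes listed for thymocytes are not all particular to them, so their sum is no measure of thymocytes. It was 12.3 to 17.4 TPM, and most of it was Cd1d1, at 12.1 ± 1.84 TPM (SD, n = 4). Of the others, Rag1 and Rag2 were at 0 in every library. Ptcra averaged 0.0125 TPM, Arpp21 averaged 0.14 TPM, Dntt averaged 0.905 TPM and Themis2 averaged 0.92 TPM. Themis2 had 0.78, 0.84, 0.42 and 1.65 TPM in libraries 1 to 4, highest in library 4, where the B cell markers were also highest. A link between them was not tested.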
